A study of Arabidopsis thaliana with 3 samples.

Results

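*MIR390a* and *MIR390b* are the *A. thaliana* loci that encode miR390, and they were taken by their names as 2 of the 11 *MIRNA* loci in the deposited table. The rule for that choice used no measured value, although earlier results of these data were known when it was made. The table held 48 values for them out of 264, of which 30 came from the 5 alignment methods that place multi-mapping (MMAP) reads. The data were sRNA-seq of inflorescences from wild-type plants of ecotype Columbia, the accession behind the reference genome, with no treatment and no second genotype. There were 3 biological replicate libraries from 1 condition. Plant age and floral stage are not given in the sources used here, and an inflorescence mixes many cell types, so that expression in more cells and more RNA per cell cannot be told apart.

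MicroRNAs are cut by a Dicer-like enzyme from a hairpin precursor, which releases a duplex of the miRNA and its partner strand, the miRNA*. miR390 is bound by ARGONAUTE7 and directed to the noncoding *TAS3* transcripts, from which trans-acting siRNAs against auxin response factor mRNAs are then produced. This pathway is known for its part in leaf polarity, developmental timing and lateral organ growth. The deposited table held none of the other genes of the pathway, so only the 2 precursor loci could be followed.

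Both loci lie on the plus strand of the RefSeq TAIR10.1 genome, whereas the authors aligned to TAIR10 and the table itself lists no coordinates. *MIR390a* (AT2G38325) is annotated at chr2:16061954-16062060 and *MIR390b* (AT5G58465) at chr5:23636947-23637066. Each is a separate noncoding gene with 0 overlapping genes. The nearest genes are AT2G38320 (*TBL34*), 3939 nt upstream, and AT2G08955, 1145 nt downstream, for *MIR390a*, and AT5G58460 (*CHX25*), 1909 nt upstream, and AT5G58470 (*TAF15b*), 348 nt downstream, for *MIR390b*. The sequences are shown because the identical miRNA and the differing surroundings decide which reads can be told apart. The miRNA is given once with its seed (bases 2 to 8) in capitals, followed by the miRNA* of each locus and by each precursor with the miRNA and miRNA* in capitals.
miR390: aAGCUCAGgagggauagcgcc
MIR390a miRNA*: cgcuauccauccugaguuuca
MIR390b miRNA*: cgcuauccauccugaguucc
MIR390a precursor: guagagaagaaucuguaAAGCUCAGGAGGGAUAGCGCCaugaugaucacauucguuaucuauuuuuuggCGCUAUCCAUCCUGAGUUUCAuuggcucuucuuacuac
MIR390b precursor: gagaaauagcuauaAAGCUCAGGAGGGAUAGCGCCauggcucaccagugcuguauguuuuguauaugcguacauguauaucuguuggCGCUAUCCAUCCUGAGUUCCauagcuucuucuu

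The 21-nt miRNA had 2 matches in the genome, 1 in each precursor, while each miRNA* had 1. The shared sequence reaches past the miRNA by 2 nt on its 5′ side and 3 nt on its 3′ side, which makes a run of 26 nt. All 24 variants made by moving either end of the miRNA by up to 2 nt were therefore present at both loci, and 0 of them were unique. At the miRNA*, 22 nt in a row were shared, 4 of them before the miRNA* and 18 within it. Aligned end to end, the precursors of 107 and 120 nt were identical at 83 of 128 positions (64.8%), and the part between miRNA and miRNA* was 31 nt in *MIR390a* and 52 nt in *MIR390b*. Folded alone with RNAfold, 18 of the 21 miRNA bases paired with the miRNA* in *MIR390a* and 17 in *MIR390b*, with predicted energies of -49.7 and -57.2 kcal/mol.

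The mature sequence also defines where miR390 can pair. In the *TAS3* gene AT3G17185 on chromosome 3, the windows with the fewest departures from full complementarity each had 16 of 21 complementary bases, and the next best had 11. They are shown in transcript orientation, with bases that are not the Watson-Crick complement of miR390 in capitals.
TAS3 first window, chr3:5862099-5862119: ggUgUuauccUAUcugagcuu
TAS3 second window, chr3:5862343-5862363: UUGUcuaucccuccugagcuA
The first window departs at its centre and near its 5′ end, and the second at its ends. A G:U pair counts as a mismatch here. These matches describe the letters only, and the reads in the table cannot show which precursor supplied the miR390 bound at either.

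Since the miRNA itself does not tell the loci apart, their surroundings matter for methods that use them. ShortStack in mode U places a MMAP read according to the uniquely aligned reads in 5 bins of 50 nt around each possible position. Of the 250 21-mers starting in this vicinity, 240 were unique in the genome at *MIR390a* and 242 at *MIR390b*. The 21-mers that were not unique were 6 at the miRNA and 2 that began just before the miRNA* of each locus, plus 2 farther upstream of *MIR390a*. With 24-mers the unique number was 247 at each. Nearly all of the precursor outside the miRNA itself, including the annotated miRNA*, thus gives reads of known origin, if such reads are made.

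**Figure D1:**
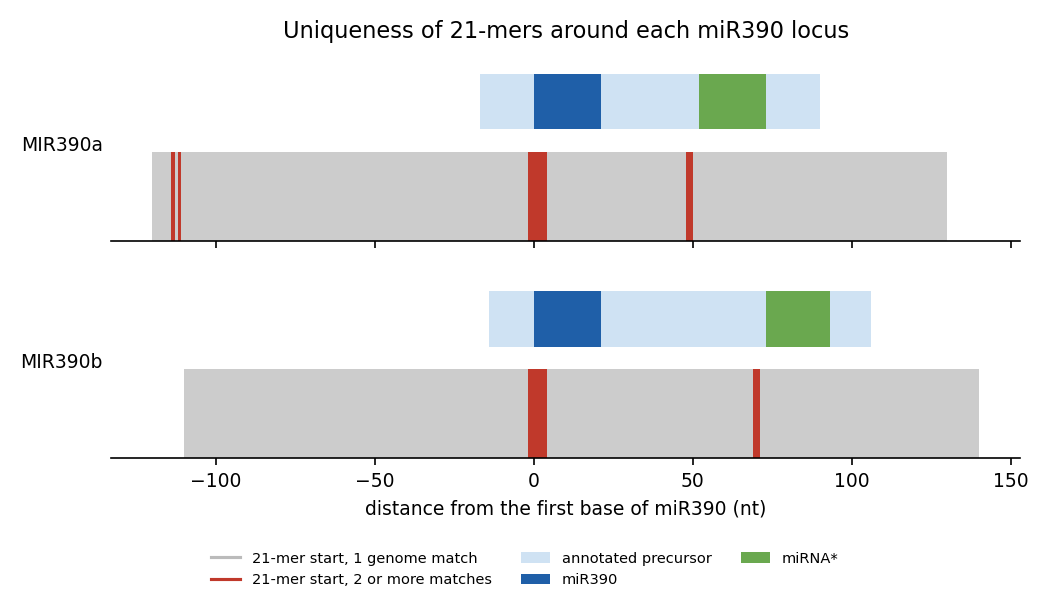
Uniqueness of 21-mers in the 250-nt vicinity of each locus, against the distance in nt from the first base of miR390. Grey marks starts with 1 genome match and red those with 2 or more, with the annotated precursor, miRNA and miRNA* drawn above to scale. The red starts sit at the miRNA and at the edge of the miRNA* in both loci, with 2 further red starts upstream of *MIR390a*, leaving 240 of 250 starts unique at *MIR390a* and 242 at *MIR390b*.

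Library totals behind the RPM (reads scaled to the library total) values were between 8274294 and 11578886 reads, so that 1 read was worth 0.0864 to 0.121 RPM. The miR390 pair took 3297 of them in replicate 1, while replicate 2 gave it 5687 and replicate 3 gave it 3865. This was 343 RPM in replicate 1, 491 in replicate 2 and 467 in replicate 3. The sum of the pair was the same under all 5 placing methods, so a method can only move reads between *MIR390a* and *MIR390b*. ShortStack-N, bowtie with -m 1 and Novoalign ignore MMAP reads and listed 0 reads at both loci in all 3 libraries, which says only that no reads of the counted kind were unique.

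Under ShortStack-U, *MIR390a* was the higher paralog in 3 of 3 libraries, by 289 ± 79.5 RPM (SD, n = 3). Replicate 1 gave it 2600 reads, replicate 2 gave 4774 and replicate 3 gave 3328. Expressed as RPM with 95% Poisson intervals, this was 270 (260 to 281) in replicate 1, 412 (401 to 424) in replicate 2 and 402 (389 to 416) in replicate 3. Replicate 1 stood below the others, whose intervals overlapped.

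For *MIR390b*, replicate 1 gave 697 reads, replicate 2 gave 913 and replicate 3 gave 537. In RPM this was 72.4 (67.1 to 78.0) in replicate 1, 78.9 (73.8 to 84.1) in replicate 2 and 64.9 (59.5 to 70.6) in replicate 3. Its 3 values lay close together, and the lowest library for *MIR390b* was not the lowest for *MIR390a*. No value of *MIR390b* reached the lowest value of *MIR390a*. With 3 libraries, the exact two-sided permutation of signs cannot give a p below 0.25, which is what it gave for the difference between the paralogs. Within each library the reads departed from an even split (exact binomial test, largest adjusted p = 2.78e-255 of the 3, Benjamini-Hochberg over 15 tests of 5 methods and 3 libraries), but this test compares reads, not plants.

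**Figure D2:**
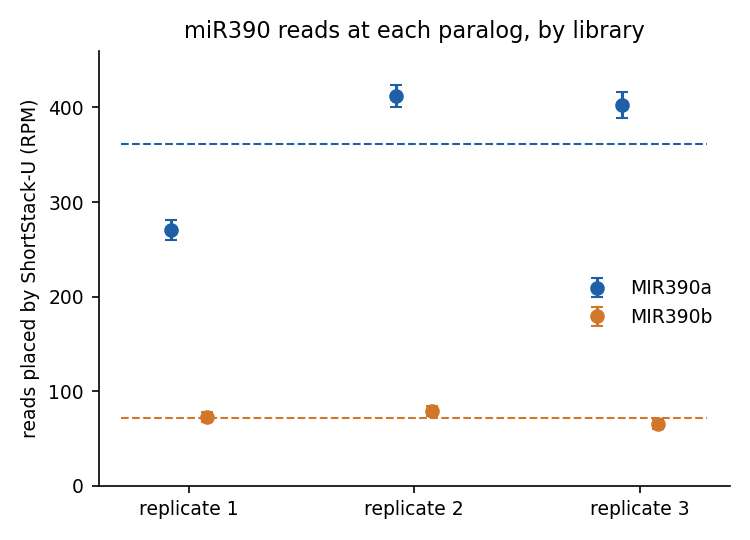
RPM placed by ShortStack-U at *MIR390a* (blue) and *MIR390b* (orange) in each library. Points are single libraries, bars are 95% Poisson intervals on the reads and dashed lines are means over the 3 libraries. *MIR390a* lies at 270 RPM in replicate 1 and at 412 and 402 RPM in replicates 2 and 3, while *MIR390b* stays between 64.9 and 78.9 RPM.

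The paralog split itself varied between libraries. *MIR390a* had 3.73 times the reads of *MIR390b* in replicate 1, 5.23 times in replicate 2 and 6.20 times in replicate 3. Its share of the miR390 reads was 78.9% in replicate 1 (95% Clopper-Pearson interval 77.4 to 80.2%), 83.9% in replicate 2 (83.0 to 84.9%) and 86.1% in replicate 3 (84.98 to 87.2%). The 3 intervals did not overlap. Between replicates 3 and 1 the share differed by 7.25 percentage points (counting SE 0.903, Fisher's exact test on the reads, adjusted p = 2.29e-15 over 3 pairs). It was higher in replicate 2 than in replicate 1 by 5.09 points (SE 0.862, Fisher's exact test, adjusted p = 2.95e-09) and differed from replicate 3 by -2.16 points, with an interval from -3.61 to -0.711 (Fisher's exact test, adjusted p = 0.0040). All of these intervals and tests cover the counting of placed reads. They do not include the counting of the unique reads that set the placement odds, nor copies of 1 molecule made by PCR, so the error of a difference in the share is larger than the counting SE given.

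Under ShortStack-U, library differences in the family sum came almost wholly from *MIR390a* where replicate 1 was involved. Replicate 2 exceeded replicate 1 by 149 RPM in the sum, of which *MIR390a* gave 142 ± 7.98 RPM (counting SE), or 95.7%, and *MIR390b* 6.43 ± 3.79 RPM. Replicate 3 exceeded replicate 1 by 125 RPM, with *MIR390a* higher by 132 ± 8.76 RPM and *MIR390b* at -7.52 ± 3.92 RPM, so that *MIR390a* gave 106% of the difference. Since *MIR390a* held 78.9 to 86.1% of these reads, a change of both paralogs in proportion would also give it most of each difference. Under the other placing methods, *MIR390a* gave from 47.0 to 59.4% of these differences. The test between libraries was an exact binomial test of the 2 counts given the library totals. It was adjusted over 9 tests of 3 pairs by *MIR390a*, *MIR390b* and their sum. For each paralog it counted placed reads only, without the unique reads behind the placement odds. *MIR390a* passed this exact test in both pairs (adjusted p = 1.09e-68 and 3.29e-52), while *MIR390b* did not (adjusted p = 0.11 and 0.076).

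Replicates 2 and 3 presented the other case in RPM, and in RPM alone of the scales tried. Their sums differed by 24.04 ± 9.94 RPM (adjusted p = 0.024, exact binomial test), of which *MIR390b* gave 13.95 ± 3.83 RPM, or 58.0%, and *MIR390a* 10.1 ± 9.18 RPM, or 41.98%. Here the difference passed the exact test for *MIR390b* (adjusted p = 0.00058) and not for *MIR390a* (adjusted p = 0.27). Both tests count placed reads only, so the error of each paralog's difference is larger than the SE given. Over all 3 libraries under ShortStack-U, the covariance with the family sum assigned 99.1% of its variance to *MIR390a* and 0.931% to *MIR390b*. The mean share of *MIR390a* in the reads was 83.0%. Without replicate 1 the part of *MIR390a* was 41.98%, so the assignment over 3 libraries in RPM rests on the low *MIR390a* value of replicate 1. The SD over libraries was 79.3 RPM for *MIR390a*, 12.97 times the SD that counting of placed reads alone gives. It was 6.98 RPM for *MIR390b*, 2.57 times its counting SD. Both ratios are upper limits, since the counting SD leaves out the unique reads behind the placement odds. Without replicate 1 these ratios were 1.10 for *MIR390a* and 3.64 for *MIR390b*. Relative to the mean, the SD was 21.9% for *MIR390a* and 9.69% for *MIR390b*.

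The choice of denominator changed this picture for both loci. Reads of miR165 and miR166, the other families in the table, summed over their 9 loci, provide a scale that does not use the library total. Relative to those reads, and rescaled to the mean library so that the units resemble RPM, miR390 stood at 356 units in replicate 1, 565 in replicate 2 and 381 in replicate 3. Replicate 2 was then the library that stood apart, by 1.59-fold over replicate 1 and 1.48-fold over replicate 3 in the family sum. *MIR390a*, which did not pass between replicates 2 and 3 as RPM, was higher in replicate 2 by 146 units (exact binomial test, adjusted p = 1.21e-60). It then gave 79.5% of the family difference between these libraries and *MIR390b* 20.5%, so the main contributor was the reverse of that in RPM. *MIR390a* held 83.9% of the miR390 reads in replicate 2 and 86.1% in replicate 3. A change of both paralogs in proportion would thus also give most of the difference to *MIR390a*. With miR165 reads alone, miR166 reads alone or raw counts, *MIR390b* gave between 20.5 and 20.6%. On this scale, *MIR390b* in replicate 3 differed from replicate 1 by -22.3 ± 3.65 units (exact binomial test, adjusted p = 1.22e-09) and *MIR390a* by 47.3 ± 7.91 (adjusted p = 3.29e-09). The reads placed by ShortStack-U at the 2 paralogs thus differed in opposite directions between replicates 1 and 3. This opposition passed the test for *MIR390b* with this scale but not with RPM. The test counts placed reads only and leaves out the unique reads behind the placement odds, so the error of each difference is larger than the SE given. A rough estimate given at the end puts the error of the share from unique reads at 2.71 percentage points in replicate 1 and 2.06 in replicate 3. Whether the opposition exceeds that error was not tested. In RPM, where ShortStack-U gave -7.52, each other placing method gave a higher *MIR390b* in replicate 3 than in replicate 1, by 50.6 to 64.3 RPM. For those methods this difference was not computed relative to miR165 and miR166 reads. Under ShortStack-U and relative to those reads, *MIR390a* carried 87.7% of the variance of the sum, beside a mean share of 83.0% of the miR390 reads. Which scale is nearer to the amount of RNA in the plants was not tested.

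**Figure D3:**
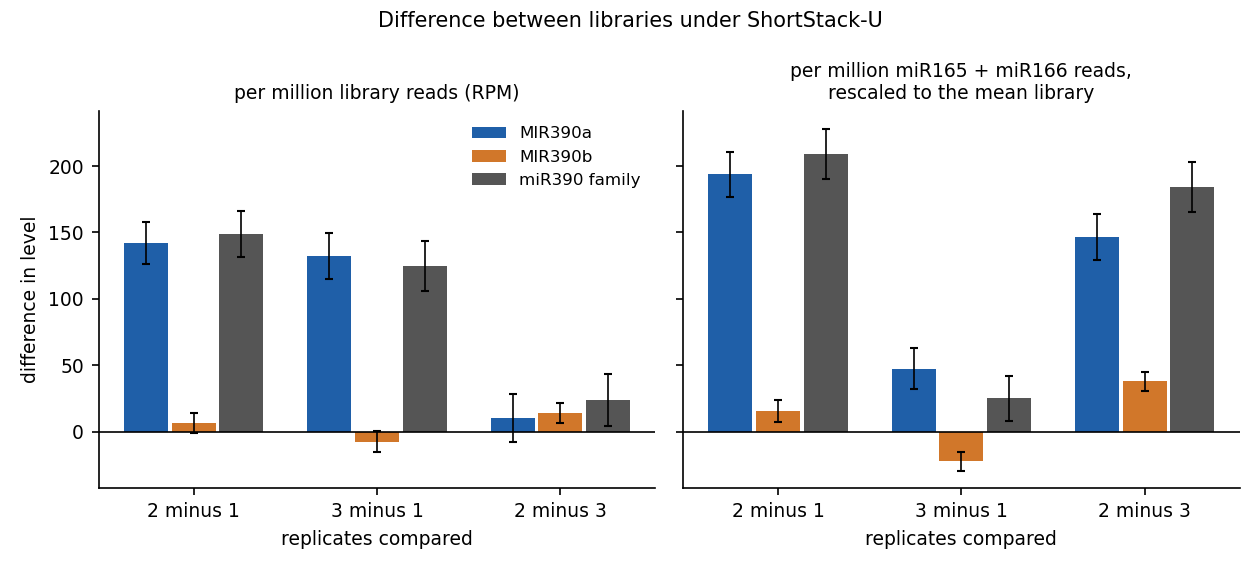
Differences between pairs of libraries under ShortStack-U for *MIR390a* (blue), *MIR390b* (orange) and their sum (grey), as RPM on the left and relative to miR165 and miR166 reads on the right. Bars start at 0 and error bars are 95% intervals from counting of placed reads. In RPM, *MIR390a* makes up 142 of 149 RPM between replicates 2 and 1, and *MIR390b* lies below 0 between replicates 3 and 1, at -22.3 units on the right.

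The other placing methods, which saw the same reads, gave splits near even. ShortStack-F, which also weighs MMAP reads, placed 1710 reads at *MIR390a* and 1587 at *MIR390b* in replicate 1, 3070 and 2617 in replicate 2, and 2027 and 1838 in replicate 3. The share of *MIR390a* was 51.9% in replicate 1, 54.0% in replicate 2 and 52.4% in replicate 3. It departed from an even split in replicates 2 and 3 (exact binomial test, adjusted p = 7.55e-09 and 0.0075) but not in replicate 1 (adjusted p = 0.072, interval 50.1 to 53.6%).

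ShortStack-R, bwa and bowtie place MMAP reads at random. ShortStack-R gave *MIR390a* between 50.2 and 50.5% and bwa between 49.6 and 50.8%, and none of these 6 values departed from an even split (exact binomial test, adjusted p from 0.69 to 0.87). Bowtie did not depart from it in replicates 2 and 3, with 50.4 and 50.6%, but placed 1563 reads at *MIR390a* and 1734 at *MIR390b* in replicate 1, a share of 47.4% (interval 45.7 to 49.1%, exact binomial test, adjusted p = 0.0077). This is the 1 library and method, of 15, with a share of *MIR390a* under 50% beyond counting error, and both loci are on the same strand. Replicate 1 under bowtie also differed from replicate 2 by 2.99 points and from replicate 3 by 3.20 points (Fisher's exact test, adjusted p = 0.022 for each over 15 tests). The mean share under bowtie was 49.5% with all libraries and 50.5% without replicate 1.

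**Figure D4:**
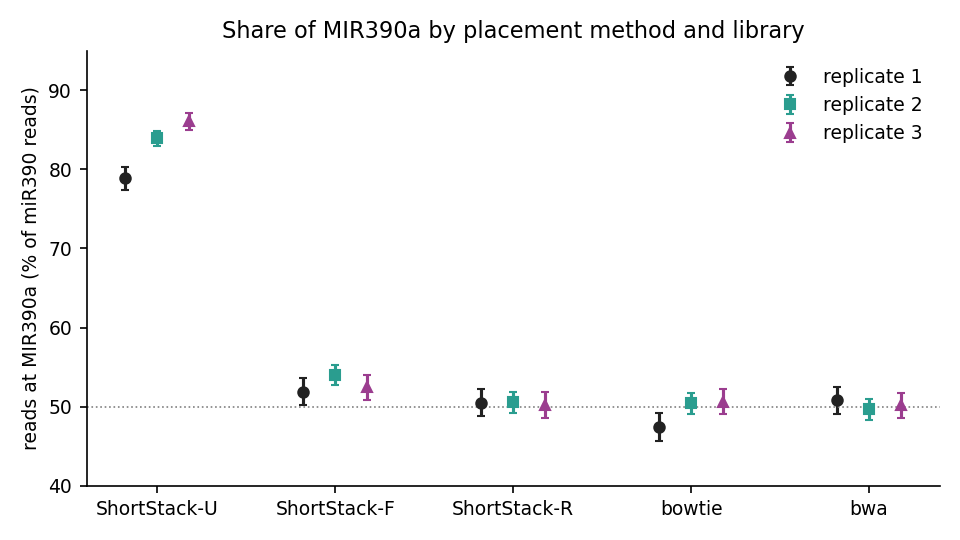
Share of *MIR390a* in the miR390 reads, in %, by placing method and library. Points are single libraries, bars are 95% Clopper-Pearson intervals and the dotted line is an even split. The axis starts at 40%. ShortStack-U lies from 78.9 to 86.1%, ShortStack-F from 51.9 to 54.0%, and bowtie in replicate 1 at 47.4%.

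The method also decided what the library differences looked like at each locus. Under ShortStack-R, *MIR390a* carried 50.3% of the variance of the family sum, under bwa 47.5%, under ShortStack-F 57.3% and under bowtie 58.0%. *MIR390b* varied by 39.7 RPM (SD, n = 3) around 215 RPM under ShortStack-R and by 6.98 RPM around 72.1 RPM under ShortStack-U. Random placement passes on the library differences of the sum to both loci alike, by its construction.

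Across libraries, the order of the miR390 loci was compared with that of the other families. Relative to its own mean over the libraries, *MIR390a* stood at 0.747 in replicate 1, 1.14 in replicate 2 and 1.11 in replicate 3, and *MIR390b* at 1.01, 1.09 and 0.901 in the same order. The miR165 sum was at 0.988, 0.838 and 1.17 and the miR166 sum at 0.930, 0.857 and 1.21, so that replicate 2 was lowest for these sums and highest for both miR390 loci. The sums follow their most abundant loci, *MIR165a* and *MIR166a*. Being highest in replicate 2 was not particular to miR390, since it also held for *MIR166d* (2.22), *MIR166e* (2.41), *MIR166f* (2.73) and *MIR166g* (1.76). The ratio of miR390 to miR165 and miR166 reads was higher in replicate 2 than in replicate 1 (adjusted p = 1.52e-101) and in replicate 3 (adjusted p = 7.31e-81, exact binomial test). It differed by 1.07-fold between replicates 3 and 1 (exact binomial test, adjusted p = 0.0044). With miR166 reads alone as the scale that difference was 1.05-fold and did not pass (exact binomial test, adjusted p = 0.057).

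**Figure D5:**
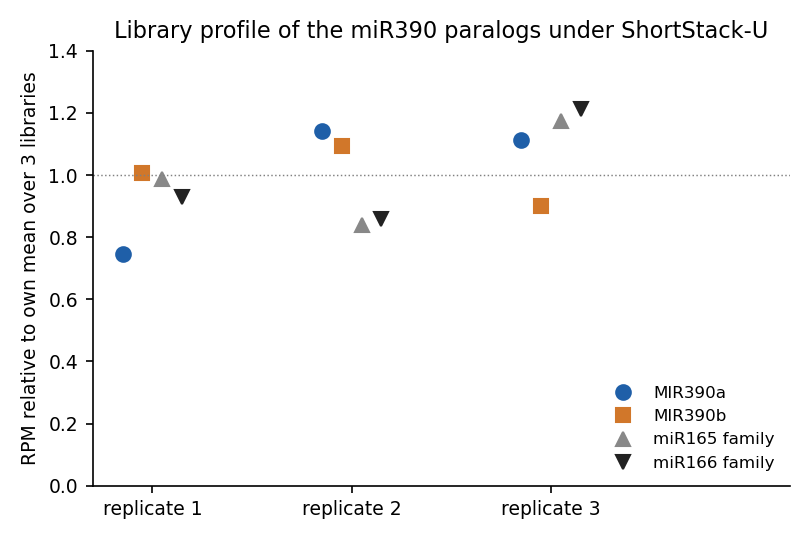
RPM of *MIR390a*, *MIR390b* and the miR165 and miR166 sums under ShortStack-U in each library, each divided by its own mean over the 3 libraries. In replicate 2 both miR390 loci lie above 1, at 1.14 and 1.09, and the sums of the other families below it, at 0.838 and 0.857.

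By the order of the 3 libraries, the loci most like *MIR390a* among the other 9 were *MIR166g*, *MIR166e* and *MIR166f*, but their relative levels departed from its own by up to 0.747, 1.27 and 1.59. *MIR390b* shared its order with 1 locus, *MIR166d*, which departed by up to 1.13. *MIR166g* was listed at 0 in replicate 1. Chosen after the values were seen, *MIR166b* departed from *MIR390a* by at most 0.164 and *MIR165b* from *MIR390b* by at most 0.139, in both cases with another order of the libraries. With 3 libraries these likenesses are descriptions.

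The placed miR390 reads give a lower limit for the error of these values, to which the unique reads behind the placement odds add. Counting of the placed reads alone fixed the share under ShortStack-U to within 1.41 percentage points on either side in replicate 1, 0.963 in replicate 2 and 1.10 in replicate 3, where 1 read is worth between 0.0176 and 0.0303 points. The counting error of the level was between 1.45 and 1.96% for *MIR390a* and between 3.31 and 4.32% for *MIR390b*. Differences of *MIR390b* from replicate 1, of 6.43 RPM in replicate 2 and -7.52 RPM in replicate 3, did not pass in RPM. The same reads passed relative to miR165 and miR166 reads (exact binomial test, adjusted p = 0.00023 and 1.22e-09), so the outcome depended on the denominator. A listed 0 would allow up to 3 reads, or 0.259 to 0.363 RPM.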

How the data were processed

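sRNA-seq libraries from 3 biological replicates of wild-type Columbia inflorescence were prepared, trimmed and aligned to TAIR10 by the authors with 8 methods. The authors deposited 1 table that gives, for each library, method and locus, a raw count of reads and the same count as RPM. Dividing the counts by the RPM gave 1 total per library. Which reads it counts, and which read lengths were counted at a locus, are not given in the sources used here. Library names were matched to replicates through the labels, and 0 columns of values were left unused. The members and tests were chosen with earlier results of these data known. Named loci were both members and, of the other 9, up to 3 with the same order of libraries and the smallest departure in relative level.

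Shares, levels and their differences were tested with exact binomial and Fisher's exact tests, two-sided, with Benjamini-Hochberg adjustment and a threshold of 0.05. Intervals are 95% Clopper-Pearson or Poisson intervals. With 1 condition, tests compare single libraries or reads within them. Alternatives were other scales, summaries, pseudocounts of 1 and 10, a filter at 10 RPM, thinning to the smallest library, other placing methods and leaving out each replicate. Sequences and positions came from RefSeq TAIR10.1, with both strands searched. Python 3.11.15, numpy 2.4.6, scipy 1.17.1, pandas 2.3.3, matplotlib 3.10.9, biopython 1.88 and ViennaRNA 2.7.2 were used, and the tests were checked on simulated counts beforehand. Those counts were plain binomial and Poisson draws, so the check does not cover the error from unique reads behind the placement odds. The qRT-PCR values were not analysed here.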

Additional observations from a re-analysis of the deposited data

How the results depend on the processing

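The results were recomputed under 122 combinations of 20 results and their alternatives. Among these, no difference in level between libraries under ShortStack-U changed sign with the scale. A change of test, a log2 form or a pseudocount cannot change a sign, and thinning scaled the reads in proportion. Placing methods were not among the alternatives for these differences, and signs did change between methods. *MIR390b* in replicate 3 minus replicate 1 was -7.52 RPM under ShortStack-U. It was 57.2 RPM with ShortStack-F, 63.0 with ShortStack-R, 50.6 with bowtie and 64.3 with bwa. The mean share of *MIR390a* crossed the even split under bowtie, from 49.5% to 50.4% with the median and 50.5% without replicate 1, and under bwa, from 50.2% to 49.9% without replicate 1. Scales by miR165 reads alone or miR166 reads alone were chosen after seeing the data. The shares of *MIR390a* under all 5 placing methods moved by less than their SD over libraries under every alternative tried. This says little about how stable they are. With 3 libraries, a median or a mean without 1 replicate cannot move by a full SD. Raw counts leave a share unchanged, and the filter at 10 RPM removed no library. The 3 differences in the share under ShortStack-U kept their side of the threshold under the alternatives tried. This could hardly have come out otherwise. The log2 odds ratio kept the result of Fisher's exact test, the chi-square test used the same reads and thinning kept the shares. None of these alternatives included the unique reads behind the placement odds.

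Differences that did not pass as RPM passed under other scales. *MIR390a* between replicates 2 and 3 reached 146 units relative to miR165 and miR166 reads, 147 with miR165 alone, 146 with miR166 alone and 1446 raw reads. *MIR390b* between replicates 2 and 1 reached 15.5, 20.4 and 13.9 on these scales and 216 raw reads, and between replicates 3 and 1 it reached -22.3, -17.7 and -23.9 and -160 raw reads. The family difference between replicates 3 and 1 was 16.7 units relative to miR166 reads and did not pass. Why the scales differ was not tested.

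The part of the family variance that goes with *MIR390a* under ShortStack-U was 99.1% and ran from 41.98 to 106% with 1 replicate left out. It was 57.3% with ShortStack-F, 50.3% with ShortStack-R, 58.0% with bowtie and 47.5% with bwa. The SD over libraries divided by the counting SD ran from 1.10 to 17.8 for *MIR390a* and from 1.70 to 3.64 for *MIR390b* with 1 replicate left out, and for *MIR390b* was 6.96 relative to miR165 and miR166 reads, 6.99997 with miR165 alone and 6.98 with miR166 alone. No fit with a replicate block was made, since the libraries form 1 group. The paralogs were compared within libraries by the permutation of signs.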

Other observations

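The placement rules of ShortStack give a rough value for the number of uniquely aligned reads behind the miR390 split. In mode U the odds come from unique reads alone, and in mode F each miR390 read adds equal weight to both loci. If no other MMAP reads lie in either vicinity, the excess of *MIR390a* over an even split in mode F, divided by that in mode U, equals the part of unique reads in the total weight. The excess was 1.87 percentage points in mode F and 28.9 in mode U in replicate 1, 3.98 and 33.9 in replicate 2, and 2.45 and 36.1 in replicate 3. These would correspond to 228 unique reads in replicate 1 (16.5 to 467 from the interval of the mode F share), 756 in replicate 2 (487 to 1049) and 281 in replicate 3 (93.9 to 486). Counting that many reads would give the share a standard error of 2.71 percentage points in replicate 1, 1.34 in replicate 2 and 2.06 in replicate 3, against 0.711, 0.487 and 0.556 from the placed reads. With the errors of implied and placed reads combined, the share differed between replicates 2 and 1 by 5.09 ± 3.14 percentage points (SE), between replicates 3 and 1 by 7.25 ± 3.52 and between replicates 2 and 3 by -2.16 ± 2.57. The first and the last of these differences are then less than 2 SE in size, although all 3 passed Fisher's exact test on the placed reads. The level of each paralog under ShortStack-U has this error too, which was not carried into the level differences given above. The unique reads were not analysed here, and the calculation was not tested against them.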
